A study of Mus musculus with 6 samples.

Results

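The genes described here encode the folding and quality-control machinery of the endoplasmic reticulum (ER), where secreted and membrane proteins are made. The 39 genes were listed by name for their role in the ER, with earlier results of these data known, and 37 of them were read from a probe set annotated to that gene alone, out of 18193 genes measured in this way. Fkbp10 was not among them, and Sec61g was read only together with the pseudogenes Gm10177 and Gm11575, so both are left out. RNA came from adipose derived mesenchymal stem cells (AD-MSCs) of the groin fat of adult C57BL/6 mice. All cells were grown in low sugar DMEM with 10% FBS, sorted by flow cytometry on CD73 (the surface enzyme encoded by Nt5e) and cultured further to the fifth passage. Affymetrix mouse genome arrays were hybridised for 3 CD73+ and 3 CD73- samples, and the deposited log2 values were compared by limma at a threshold of 0.05 on p-values adjusted (Benjamini-Hochberg) across 45037 probe sets. The labels give no treatment or genetic change that separates the groups. The labels do not say whether the samples of a group were separate cultures, and the p-values then describe the scatter of these arrays alone, part of which may be technical.

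Proteins enter the ER through the Sec61 channel, lose their signal peptide to a peptidase, and are folded by chaperones such as BiP and by enzymes that form disulfide bonds. Molecules that do not fold are drawn back into the cytosol and destroyed, a route called ER-associated degradation (ERAD). When unfolded protein builds up, the sensors Ire1 (gene Ern1), Atf6 and Perk (gene Eif2ak3) start the unfolded protein response, in which Ire1 splices the messenger of the transcription factor Xbp1. Mesenchymal stromal cells secrete much collagen and many growth factors and use this machinery heavily.

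Stromal genes were high in both groups. The mean log2 signal of 11 stromal markers lay between 10.52 and 10.55 on CD73+ arrays and between 10.03 and 10.08 on CD73- arrays. Of the 11, 7 were higher in CD73+ AD-MSCs, where 10.1% of all genes were higher. Nt5e, whose product was used to sort the cells, is among these 7 and enters the means. Ptprc, which encodes CD45 of blood cells, was near the lowest values of the arrays, with 3.19 ± 0.13 (SD, n = 3) in CD73- AD-MSCs against 3.06 ± 0.081 (SD, n = 3) in the CD73+ group, and Adipoq of adipocytes was at 3.17 and 3.18. Of 8 markers of blood cells, Cd14 and Csf1r were higher and the others did not pass, with array means of 5.20 to 5.25 in CD73+ and 5.01 to 5.11 in CD73- AD-MSCs. Of 8 markers of plasma cells and secretory epithelium, Sdc1 alone was higher, and Jchain, which defines plasma cells, averaged 3.86 in CD73- against 3.80 in CD73+ samples (array means of the list 4.97 to 5.07 and 5.15 to 5.21). None of 7 endothelial markers passed, 1 of 7 mural markers was higher, and of 5 adipocyte markers Pparg alone was lower. All 11 markers of dividing cells were higher, with an array mean of 9.32 to 9.36 in CD73+ against 8.71 to 8.80 in CD73- AD-MSCs. The brightest probe set of Nt5e was higher by 0.88 on the log2 scale (limma, adjusted p = 0.0218), and the other 2 did not pass. The log2 ratio of the end over the start of beta-actin, which reflects RNA integrity, stood at 0.19 ± 0.028 (SD, n = 3) for CD73- arrays and 0.084 ± 0.014 (SD, n = 3) for CD73+ arrays. For Gapdh the same ratio averaged -0.27 (SD 0.035) on CD73+ arrays, against -0.30 (SD 0.023) on the arrays of the other group. The Gapdh difference of 0.025 was smaller than the SD of the CD73+ arrays and opposite in sign to that of beta-actin (-0.11). Whether RNA integrity differed between the groups was not tested. The part of the marker and beta-actin differences in the ER gene results was not tested. Since these are bulk samples, fewer cells of a type and less RNA per cell cannot be told apart.

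Genes of the list changed in both directions. All 15 genes that were higher in CD73+ AD-MSCs serve protein folding or entry, while the sensor genes Atf6 and Ern1, the transcription factor Xbp1 and several ERAD genes were lower, together with BiP, Dnajb9 and Ero1a. Of the 37 genes, 15 were higher and 9 lower, where 10.1% of all genes were higher and 12.6% lower. These are 40.5% and 24.3% of the measured list. Of all probe sets, 9.79% were higher and 9.11% lower. In 32 of the 37 genes the groups were fully apart, with the CD73+ arrays above in 21 (18.1% of all genes) and below in 11 (22.7% of all genes), where 40.8% of all genes were apart in either direction. The differences were small, from -0.52 for Atf6 to 0.59 for Pdia4 on the log2 scale, with a median of 0.12 where the median over all genes was -0.018. The median of the list depends on the probe set read, and was 0.23 with the mean of each gene's probe sets and 0.25 with the probe set of widest spread. All directions given here refer to the values as deposited, where the median probe set differed by -0.000187. When arrays were instead scaled to their poly-A controls, bacterial transcripts usually added to the RNA before labelling, that median became 0.93, and all 37 ER genes were then higher and none lower.

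**Figure D1:**
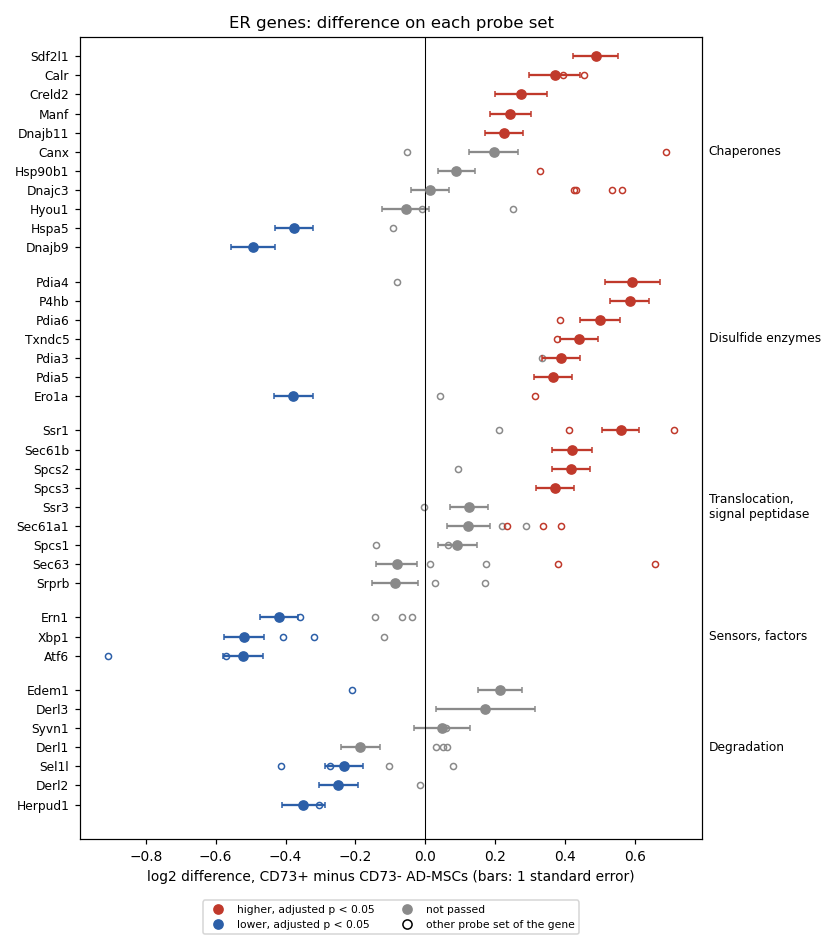
Difference in deposited log2 values (CD73+ less CD73-, horizontal axis) for 37 ER genes, grouped by role. Filled points are the brightest probe set of each gene with bars that give 1 limma standard error (n = 3 in each group). Open points are its other probe sets, and colours give the call. The filled points of the disulfide enzymes other than Ero1a lie to the right between 0.37 and 0.59. Those of the sensors lie to the left between -0.52 and -0.42, and some open points lie outside these ranges.

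**Figure D2:**
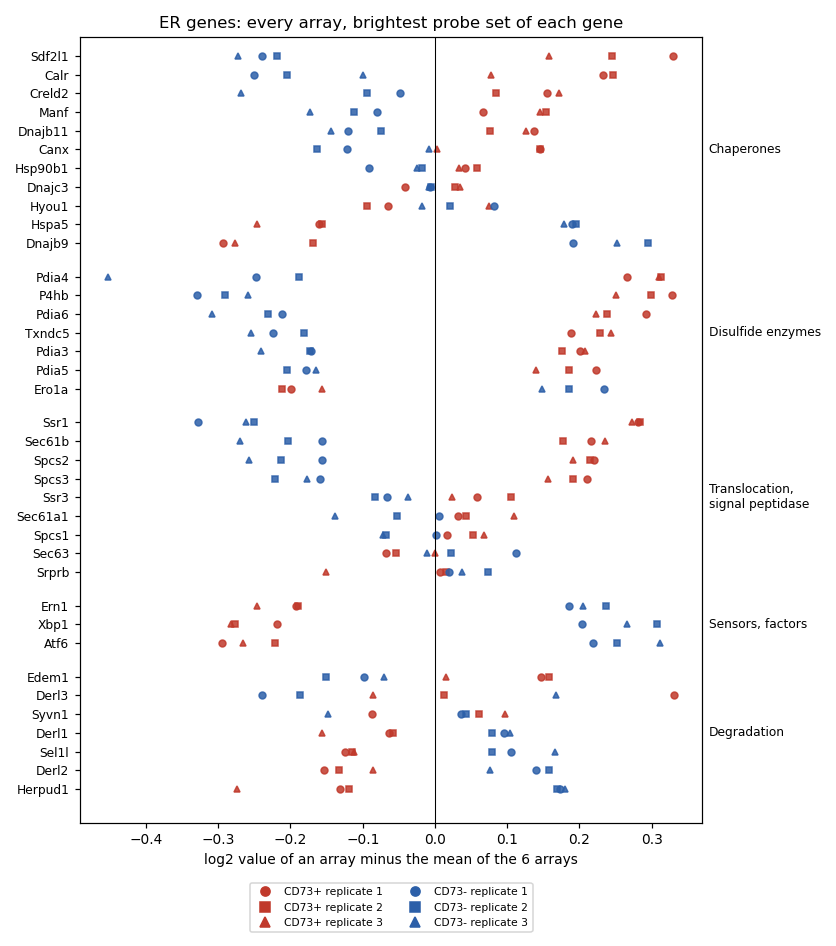
Deposited log2 value of every array minus the mean of the 6 arrays (horizontal axis) for the brightest probe set of each ER gene, red for CD73+ and blue for CD73- AD-MSCs, with a marker shape for each replicate number. The colours do not overlap for 32 of 37 genes, and the red points lie on the left for the sensors and on the right for most folding and translocation genes.

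Promoter sequences show motifs that some of these genes share. The ER stress response element (ERSE) is the sequence CCAAT and CCACG set 9 bases apart, bound by NF-Y and, under stress, by Atf6. Windows from 250 bases before to 50 bases after the gene start were taken from RefSeq (GRCm38.p6) and matched 32 of the 39 genes. Counting both strands and exact letters, an ERSE stood in 9 of these 32 genes (28.1%), against 37 of 27025 genes (0.137%) in the whole table. The shorter ERSE-II, ATTGG and CCACG with 1 base between them, stood in 2 of the 32 (6.25%) and in 0.0444% of all genes, and the UPRE of Xbp1, TGACGTGG, in 1 (3.12%) and in 0.714% of all genes. None of the matches overlapped another. An ERSE or ERSE-II stood in 11 of the 32 genes. The motifs were chosen from general knowledge of the unfolded protein response, which acts on such genes, so their higher share is not independent of the list. A match is a description of these letters, not a measured binding site. The windows around the ERSE and ERSE-II matches of the genes that passed, and of Hsp90b1, Canx and Dnajc3 which did not, are shown 5′ to 3′ in the direction of the gene, to set genes that rose beside genes that fell. Capitals mark the fixed letters of the motif, and an ERSE in reverse reads CGTGG and then ATTGG.
Hspa5 (chr2:34772010-34772058, plus strand): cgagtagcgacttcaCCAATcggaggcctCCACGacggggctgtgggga
Herpud1 (chr8:94386362-94386402, plus strand): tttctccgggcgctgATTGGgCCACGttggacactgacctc
Calr (chr8:84847060-84847108, minus strand): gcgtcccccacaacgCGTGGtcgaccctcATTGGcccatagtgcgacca
Pdia6 (chr12:17266476-17266524, plus strand): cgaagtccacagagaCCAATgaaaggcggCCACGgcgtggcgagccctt
Creld2 (chr15:88819505-88819553, plus strand): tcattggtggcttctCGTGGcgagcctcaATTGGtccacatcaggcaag
Dnajb11 (chr16:22857837-22857877, plus strand): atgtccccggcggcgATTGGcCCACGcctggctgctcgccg
Hsp90b1 (chr10:86705623-86705671, minus strand): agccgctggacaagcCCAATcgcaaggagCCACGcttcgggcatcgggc
Hsp90b1 (chr10:86705518-86705566, minus strand): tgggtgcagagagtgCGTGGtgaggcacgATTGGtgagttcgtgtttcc
Canx (chr11:50325785-50325833, minus strand): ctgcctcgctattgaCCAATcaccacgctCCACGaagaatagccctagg
Dnajc3 (chr14:118937812-118937860, plus strand): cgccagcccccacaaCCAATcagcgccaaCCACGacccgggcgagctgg
Of the 9 genes with an ERSE, Calr, Pdia6 and Creld2 were higher, Hspa5 alone was lower and 5 did not pass. Of all genes, 10.1% were higher and 12.6% lower. The 5 that did not pass had positive differences on their brightest probe sets, from 0.013 for Dnajc3 to 0.20 for Canx. Hsp90b1, Canx and Dnajc3 also had other probe sets that were higher. Of the ERSE-II genes Dnajb11 was higher and Herpud1 lower. Whether the motifs go with a direction was not tested. The whole windows of Hspa5 and Pdia6, which carried the element from base -65 and base -98 counted from the start and moved in opposite directions, were as follows.
Hspa5 (chr2:34771840-34772139, plus strand): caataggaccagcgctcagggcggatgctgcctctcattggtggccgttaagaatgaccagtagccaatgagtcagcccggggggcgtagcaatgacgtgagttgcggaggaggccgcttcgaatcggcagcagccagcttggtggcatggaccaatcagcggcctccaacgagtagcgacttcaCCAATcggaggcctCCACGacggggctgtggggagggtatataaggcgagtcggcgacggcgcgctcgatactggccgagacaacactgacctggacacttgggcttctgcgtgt
Pdia6 (chr12:17266339-17266638, plus strand): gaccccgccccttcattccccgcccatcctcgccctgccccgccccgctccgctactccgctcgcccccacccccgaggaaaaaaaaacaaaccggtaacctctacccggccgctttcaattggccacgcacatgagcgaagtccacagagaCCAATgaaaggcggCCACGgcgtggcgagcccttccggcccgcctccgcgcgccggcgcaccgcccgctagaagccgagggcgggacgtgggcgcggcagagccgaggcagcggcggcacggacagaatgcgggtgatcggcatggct
Only the exact letters were counted, so that near matches in these windows are not in capitals.

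**Figure D3:**
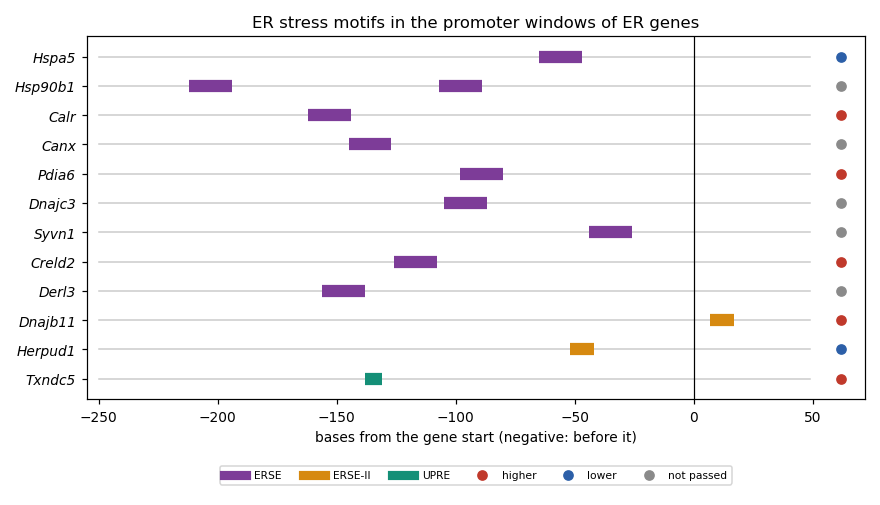
Position of ERSE, ERSE-II and UPRE matches (coloured bars) in bases from the gene start on the horizontal axis, for the ER genes that hold any, with a dot at the right for the call of the gene. ERSE matches lie between base -212 and base -26, with red and grey dots beside them and a blue dot for Hspa5 only.

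Among the chaperones, BiP and its partner Dnajb9 were lower, while calreticulin and several smaller folding factors were higher. Hspa5 encodes BiP, the main chaperone of the ER lumen and the protein that holds the sensors inactive. It measured 12.71, 12.71 and 12.62 on CD73+ arrays (replicates 1 to 3, in that order here and below) and 13.06, 13.07 and 13.05 on CD73- arrays, which differ by -0.38 on the log2 scale (standard error 0.055, limma adjusted p = 0.00347). Every CD73+ array was below every CD73- array by more than the spread within either group. A second probe set had a difference of -0.38 and passed, and the last had -0.092 and did not. Dnajb9, a co-chaperone of BiP that is a target of Xbp1 and restrains Ire1, stood at 9.11, 9.24 and 9.13 against 9.60, 9.70 and 9.66 (difference -0.49, adjusted p = 0.00189), again without overlap.

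Sdf2l1, which works with BiP and Dnajb11, moved the other way. Its values were 7.64, 7.56 and 7.47 in CD73+ and 7.07, 7.09 and 7.04 in CD73- AD-MSCs, 1.40-fold higher (limma adjusted p = 0.00214). Calr, the calcium-binding lectin calreticulin, gave 12.04, 12.06 and 11.89 against 11.56, 11.61 and 11.71 (0.37, adjusted p = 0.0112). Both of its other probe sets passed as well, at 0.39 and 0.46. CD73+ replicate 3 was the lowest CD73+ array for both genes, and the call of Calr ended without CD73+ replicate 1 (adjusted p = 0.0505 from limma). Manf, a secreted stress factor that binds BiP, had 10.62, 10.71 and 10.70 in CD73+ and 10.47, 10.44 and 10.38 in CD73- AD-MSCs (0.24, adjusted p = 0.0255). For Dnajb11, a co-chaperone of BiP, the arrays read 9.75, 9.69 and 9.74 against 9.49, 9.54 and 9.47 (0.23, adjusted p = 0.0264). Creld2, a stress-induced folding factor, read 8.46, 8.39 and 8.48 against 8.26, 8.21 and 8.04 (0.27, adjusted p = 0.0389). These last 3 genes did not overlap between the groups, but their calls were weak. That of Dnajb11 ended without any 1 array (adjusted p up to 0.104), and those of Manf and Creld2 ended without any array other than CD73- replicate 1 (up to 0.0954 and 0.121, limma). Centring each array on its median also ended them (adjusted p = 0.0967 for Dnajb11, 0.0969 for Manf and 0.104 for Creld2).

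The remaining chaperones did not pass on their brightest probe sets. Hsp90b1, the ER member of the Hsp90 family, differed by 0.089 on its brightest probe set (limma, adjusted p = 0.329) and by 0.33 on the other (adjusted p = 0.0115). Canx, the membrane lectin calnexin, had 0.20 on the brightest, -0.053 on a second and 0.69 (adjusted p = 0.000444) on the last. Dnajc3, an inhibitor of Perk and a co-chaperone, had 0.013 on the brightest, while its 4 other probe sets were higher by 0.42 to 0.56. Hyou1, the exchange factor of BiP, passed on none of its 3 probe sets, with differences from -0.056 to 0.25.

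Disulfide enzymes were higher with 1 exception. All 6 protein disulfide isomerases on the list were higher in CD73+ AD-MSCs with no overlap. Of all genes, 10.1% were higher and 18.1% had every CD73+ array above. Ero1a, the oxidase that recharges these isomerases, was lower on its brightest probe set. P4hb, the prototype isomerase and also the beta subunit of collagen prolyl hydroxylase, gave 12.41, 12.38 and 12.33 on CD73+ and 11.76, 11.79 and 11.83 on CD73- arrays, a rise of 0.59 on the log2 scale (standard error 0.056, adjusted p = 0.00062 from limma). Pdia4, an isomerase that carries extra catalytic domains, had 9.37, 9.42 and 9.42 against 8.86, 8.92 and 8.66 (1.51-fold, adjusted p = 0.00225). Its low value in CD73- replicate 3 widened that group, and a second probe set had -0.082 and did not pass. Pdia6, which also acts on Ire1, gave 10.96, 10.90 and 10.89 against 10.46, 10.44 and 10.36 (1.42-fold, adjusted p = 0.00127), with 0.39 on its other probe set (adjusted p = 0.0296).

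The other isomerases were higher by 0.37 to 0.44. Txndc5, which supports collagen folding in fibroblasts, stood at 10.83, 10.87 and 10.89 in CD73+ and 10.42, 10.46 and 10.39 in CD73- AD-MSCs (0.44, limma adjusted p = 0.00173), and at 0.38 on a second probe set that passed. Pdia3, the isomerase that works with calreticulin and calnexin on glycoproteins, read 11.94, 11.91 and 11.95 against 11.57, 11.57 and 11.50 (0.39, adjusted p = 0.00273). A second, dimmer probe set of Pdia3 had 0.33 and did not pass. Pdia5 read 9.85, 9.81 and 9.77 against 9.45, 9.42 and 9.46 (0.37, adjusted p = 0.00363). In each of these genes the lowest CD73+ array was above the highest CD73- array, and each call held without any 1 array. Ero1a passes electrons from the isomerases to oxygen. On its brightest probe set it measured 11.31, 11.30 and 11.36 in CD73+ and 11.75, 11.70 and 11.66 in CD73- AD-MSCs (-0.38, adjusted p = 0.00338), but its other probe sets had 0.043, which did not pass, and 0.31, which passed upwards (adjusted p = 0.0101). The direction of Ero1a therefore depends on the probe set, and the mean of the 3 had a difference of -0.0068.

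**Figure D4:**
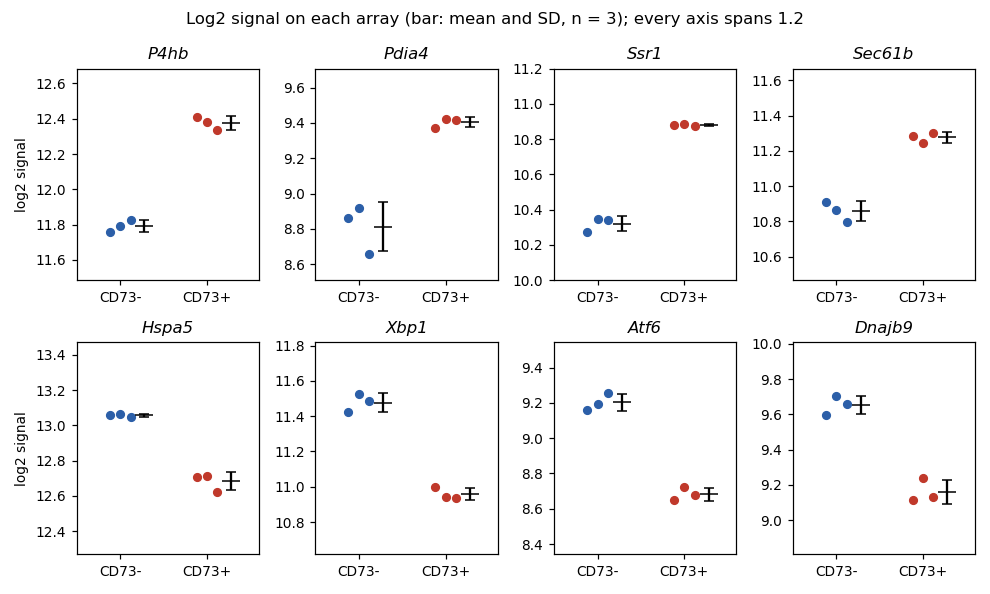
Deposited log2 signal (vertical axis, every panel spanning the same range) of 4 genes that were higher and 4 that were lower in CD73+ AD-MSCs, 1 point per array, with the mean and SD of the 3 arrays of each group beside them. The groups do not overlap in any panel, and the distance between them runs from -0.52 for Atf6 to 0.59 for Pdia4.

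Of the genes that bring proteins into the ER, 4 of 9 were higher and none was lower. Of all genes, 10.1% were higher and 12.6% lower, so that few lower genes would be found among 9 at that share. Ssr1, the alpha subunit of the translocon-associated complex, had nearly equal CD73+ arrays at 10.88, 10.88 and 10.87 against 10.27, 10.35 and 10.34 in CD73- AD-MSCs (1.47-fold higher, adjusted p = 0.00067 from limma). Of its 3 other probe sets, 2 passed at 0.41 and 0.71 and the last, at 0.21, did not. Sec61b, the beta subunit of the channel, measured 11.28, 11.24 and 11.30 against 10.91, 10.86 and 10.80 (0.42, adjusted p = 0.00262). Spcs2, a subunit of signal peptidase, measured 10.48, 10.48 and 10.46 against 10.11, 10.05 and 10.01 (0.42, adjusted p = 0.00229), although its second probe set had 0.095 and did not pass. Spcs3, another subunit of the peptidase, measured 10.05, 10.03 and 10.00 against 9.68, 9.62 and 9.67 (0.37, adjusted p = 0.00322). None of these calls ended when 1 array was left out.

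The 5 others did not pass on the brightest probe set. Sec61a1, the pore of the channel, had 0.12 there (limma, adjusted p = 0.236) and between 0.22 and 0.39 on its 5 other probe sets, 3 of which passed. Sec63, which couples BiP to the channel, had -0.082 on the brightest, rose by 0.38 and 0.66 on 2 others, and did not pass on the remaining 2 (0.014 and 0.17). For Ssr3 and Spcs1, subunits of the complexes of Ssr1 and Spcs2, the differences were 0.12 and 0.092. The other probe sets, at -0.0030 for Ssr3 and at 0.066 and -0.14 for Spcs1, did not pass either. Srprb, the membrane anchor of the signal recognition particle receptor, had -0.086. Its 2 other probe sets had 0.027 and 0.17, and none passed.

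All 3 sensor and factor genes on the list were lower in CD73+ AD-MSCs, where 12.6% of all genes were lower. Atf6, the membrane-bound factor that is cut free under stress and then binds the ERSE, read 8.65, 8.72 and 8.68 on CD73+ and 9.16, 9.19 and 9.25 on CD73- arrays (-0.52, standard error 0.057, adjusted p = 0.00106 from limma). Its 2 other probe sets passed too, at -0.57 and -0.91, so that the gene was lower on every probe set. Xbp1 had 11.00, 10.94 and 10.94 against 11.42, 11.52 and 11.48 (-0.52, adjusted p = 0.00113). On its other probe sets it was lower by 0.32 and 0.41, and the last, at -0.12, did not pass. The splicing of Xbp1 was not measured here. Ern1, the gene of Ire1, had 8.54, 8.55 and 8.49 against 8.92, 8.97 and 8.94 (-0.42, adjusted p = 0.00199), and -0.36 on a second probe set that passed, while 3 others between -0.14 and -0.038 did not pass. The calls of these 3 genes held without any 1 array.

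The sensor Perk, which is not on the list and was singled out after its values were seen, went the other way. Eif2ak3 measured 7.96, 7.78 and 7.90 in CD73+ and 7.50, 7.45 and 7.26 in CD73- AD-MSCs (difference 0.48, limma adjusted p = 0.00696). A second probe set had 0.25 and passed, and another had -0.13 and did not.

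In ERAD, 3 of 7 genes were lower and none was higher, where 12.6% of all genes were lower and 10.1% higher, and the calls of Sel1l and Derl2 were weak. Herpud1, a membrane protein that assembles the degradation complex and is strongly induced by ER stress, had 10.34, 10.35 and 10.20 in CD73+ and 10.64, 10.64 and 10.65 in CD73- AD-MSCs (-0.35, limma adjusted p = 0.00783), and -0.30 on its other probe set, which passed. Derl2, a part of the retrotranslocation channel, read 9.68, 9.70 and 9.75 against 9.97, 9.99 and 9.91 (-0.25, adjusted p = 0.0197), and its second probe set, at -0.016, did not pass. Sel1l, the partner of the ubiquitin ligase Hrd1, read 8.87, 8.88 and 8.89 against 9.10, 9.08 and 9.16 (-0.23, adjusted p = 0.0224). Of its 4 other probe sets, 2 were lower by 0.27 and 0.41 and 2 did not pass. The Sel1l call ended without any 1 array (adjusted p up to 0.0859), and the Derl2 call without any array other than the replicate 3 arrays (up to 0.0838).

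Hrd1 itself, encoded by Syvn1, had 0.047 and 0.060 on its probe sets and did not pass. Edem1, a lectin that hands misfolded glycoproteins to ERAD, had 0.21 on its brightest probe set (limma, adjusted p = 0.0557) and -0.21 on the other (adjusted p = 0.0346). The Edem1 result thus has no single direction here. Derl1, the relative of Derl2, had -0.19 (adjusted p = 0.0592) with no overlap between the groups, and 3 other probe sets between 0.032 and 0.061 did not pass. Derl3, a stress-induced relative found in secretory cells, lay near the array medians, between 5.20 and 5.77 with overlap (adjusted p = 0.487).

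Over all 94 probe sets of the 37 genes, 33 were higher and 19 lower, that is 35.1% and 20.2%, against 10.6% and 10.9% of all probe sets with a single gene. Of 15 genes that passed and have several probe sets, 5 passed in the same direction on all of them. Only in Ero1a did another probe set pass the other way. A further 5 genes that did not pass had another probe set that was higher (Hsp90b1, Canx, Dnajc3, Sec61a1 and Sec63), and 1 had another that was lower (Edem1). The brightest probe sets of 5 genes (Canx, Xbp1, Syvn1, Hyou1 and Sec63) have names ending in s_at, which marks probes shared by several transcripts.

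Other ER genes, taken from a second list that covers the same roles, were also read on the deposited scale. Of 89 measured, 30 were higher and 10 lower (33.7% and 11.2%), with a median of 0.11. Of all genes 10.1% were higher and 12.6% lower, so that the share of lower genes was near that of all genes. Among 32 folding factors 13 were higher and none lower, and among 25 genes of translocation, signal peptide removal and glycosylation 10 were higher and none lower. In ERAD the counts turned, with 4 higher and 9 lower of 23. Fkbp14, a prolyl isomerase for collagen, rose by 0.87 (adjusted p = 0.00047 from limma) and Cnpy4 by 0.82 (adjusted p = 0.000487). Ube2j1, the ubiquitin-conjugating enzyme of ERAD, fell by 0.56 (adjusted p = 0.00255), and Wfs1, an ER membrane protein that regulates Atf6, fell by 0.55 (adjusted p = 0.00167). Of 9 sensors and their processing proteases, 3 were higher and 1 lower.

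Neighbouring programs were read in the same way. Of all genes, 10.1% were higher and 12.6% lower. Of 22 genes for collagen folding and cross-linking, 17 were higher and 1 lower (77.3% and 4.55%), with a median of 0.47. Pcolce2, an enhancer of procollagen processing, rose by 1.36 and P3h4, a helper of lysine hydroxylation, by 0.79, while Ctage5, which takes part in collagen export from the ER, fell by 0.24. Of 27 genes listed under the Perk branch and amino acid supply, 23 were lower (85.2%) and none was higher, with a median of -0.36. The part of Perk in these genes was not tested, and its own gene Eif2ak3 was higher by 0.48 on its brightest probe set. Slc7a11, the cystine importer, fell by 0.89 and Cebpg, a partner of Atf4, by 0.78. These counts were read from the same fit and were not tested as lists. No difference between lists was tested.

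**Figure D5:**
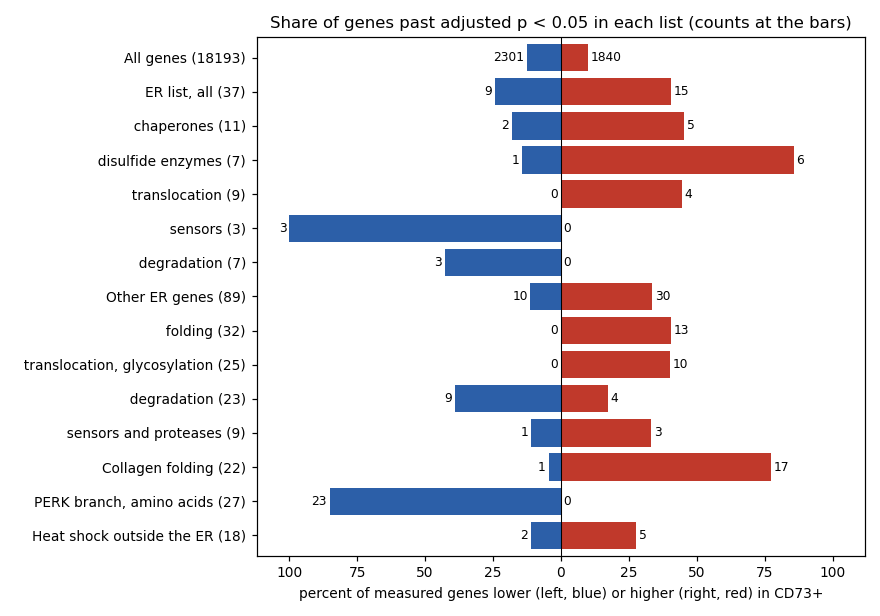
Percent of the measured genes of each list that were higher (red, to the right) or lower (blue, to the left) in CD73+ AD-MSCs, deposited scale, at an adjusted p below 0.05, with counts at the bars and the number measured in brackets. Against 10.1% higher and 12.6% lower of all genes, the disulfide enzymes stand at 6 higher and 1 lower of 7, the Perk branch list at 23 lower of 27, and ERAD genes lean to the left in both ER lists.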

How the data were processed

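Per the labels, RNA of 3 CD73+ and 3 CD73- samples was hybridised to Affymetrix arrays. The deposited values of 45101 probe sets are log2 signals, made with RMA according to the submitters' processing notes (version not given in the sources used here). RMA forces the arrays to nearly 1 distribution, which hides any change common to most transcripts, and tends to shrink ratios.

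Leaving out 64 control probe sets, 45037 were fitted with limma 3.58.1 (R 4.3.3), with no block, no filter and a two-sided test. The methods name no test for single probe sets. Each gene is represented by its brightest probe set (mean of all 6 arrays) of those with a single symbol (34945 of 45037, while 932 have several and 9160 none). The fit was run on simulated arrays with independent noise, which checks the code and not the calls made here. All listed genes were named, those that passed with every array, and from the other lists those that changed by the greatest amount. The members and lists were chosen with earlier results of these data known. Array medians lay between 5.28 and 5.37, and the number of arrays limits the precision. Alternatives were a replicate block, other normalizations, a filter, other priors and weights, leaving out 1 array at a time, other probe sets and an equal-variance t-test. Promoters came from RefSeq (GRCm38.p6), and 7 genes had no entry. Figures used matplotlib 3.10.9.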

Additional observations from a re-analysis of the deposited data

How the results depend on the processing

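The counts of ER genes stayed within 1.5 times of 15 higher and 9 lower under every alternative other than the poly-A scaling. Without any 1 array they were 11 to 14 higher and 7 to 8 lower, with a median difference of 0.12 to 0.14, while all probe sets gave 2794 to 4199 higher and 2525 to 3907 lower. The replicate block gave 12 and 7 (2713 lower over all probe sets, against 4105), and ended the calls of Dnajb11, Sel1l, Manf, Creld2 and Derl2. Deviations of same-numbered arrays from their group means correlated at -0.138, 0.0276 and -0.136. With means over 3 arrays, these values cannot settle whether the numbers pair the arrays, and the labels do not say. Median centring gave 12 and 9 and ended the calls of Dnajb11, Manf and Creld2, and eBayes with a trend 21 and 10. The mean of a gene's probe sets gave 20 and 7 with a median of 0.23, and the probe set with the widest spread 19 and 9 with a median of 0.25. The cause of these shifts was not tested.

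Scaling to the poly-A controls, which differed by -0.93 between the groups, gave 44707 probe sets higher and 33 lower, and 37 ER genes higher and 0 lower with a median of 1.05. The 9 lower genes turned, Hspa5 (0.55), Dnajb9 (0.43), Xbp1 (0.41), Atf6 (0.41), Ern1 (0.51), Sel1l (0.69), Herpud1 (0.58), Ero1a (0.55) and Derl2 (0.68), and so did the sign of 4 that had not passed, Hyou1 (0.87), Sec63 (0.84), Srprb (0.84) and Derl1 (0.74). Among genes that had not passed, the sign also turned under other settings for Dnajc3 with median centring (-0.019) and without CD73+ replicate 3 (-0.00074, with a range of -0.00074 to 0.038 over the arrays left out), and for Syvn1 with array weights (-0.0085) and without CD73- replicate 3 (-0.015, range -0.015 to 0.10). With the mean of the probe sets it turned for Hyou1 (0.062), Sec63 (0.23) and Srprb (0.037). With the widest probe set it turned for Hyou1 (0.25), Ssr3 (-0.0030), Sec63 (0.66), Spcs1 (-0.14) and Srprb (0.17). Of 444 gene values under settings that keep all arrays, 377 kept direction and side of the threshold. With an array left out, 192 of 222 did.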

Other observations

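Heat shock genes outside the ER were also measured. Of 18 such genes, cytosolic but for the mitochondrial Hspd1 and Hspe1 and the nuclear factor Hsf2, 5 were higher and 2 lower in CD73+ AD-MSCs, with a median difference of 0.091. These are 27.8% and 11.1%, where 10.1% of all genes were higher and 12.6% lower. The share of lower genes was thus near that of all genes. Hspa1b and Hspa1a, the inducible Hsp70 genes, rose by 0.97 and 0.93 (adjusted p = 0.000202 and 0.000717 from limma). The transcripts of this pair are nearly identical, so that their probes may read both. Hsf2, a heat shock factor, fell by 0.72 and Hspe1, a co-chaperonin, by 0.25. These directions hold on the deposited scale.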
